A study of Rattus norvegicus with 2 samples.

Results

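Complement and clotting proteins are secreted into blood mainly by hepatocytes, and this report describes their transcripts in rat liver after a low-fat or a high-fat diet. The genes were chosen by name, as all probe sets whose only gene symbol in the array's annotation was 1 of 44 listed genes of complement, clotting, fibrinolysis and their inhibitors. Of these, 29 were found, on 37 probe sets, among 10411 genes with a single symbol on the array. Another 4 (C2, C4a, Cfb and Kng1) were found only on probe sets annotated to several genes and are not described, and 11 had no probe set under that name: C5, C6, C8a, C8g, Cd59, F7, F9, F11, F12, F13b and Serpinc1.

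Total RNA from liver of SD rats had been hybridised to 2 oligonucleotide arrays, 1 for each diet. Both diets were based on AIN93G, a purified rodent diet. The rats were labelled as 4 weeks old with 9 weeks of feeding. How much fat each diet held, whether the rats were male or female and how many animals each RNA came from were not stated in these sources. With 1 array per diet there is no spread between samples, no test and no p-value, so each difference describes this pair of arrays. In whole liver, fewer cells of a type and less RNA per cell cannot be told apart.

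Complement is a cascade of plasma proteases. Antibody-bound C1 or sugar-bound lectins start it, both routes cleave C3, and the terminal components assemble a pore in the target membrane. Clotting is a second protease cascade in which thrombin turns fibrinogen into fibrin, and plasmin later dissolves the clot. Both systems are held in check by plasma inhibitors, many of them of the serpin family. Several genes of both systems belong to the acute phase response of the liver, in which cytokines act on hepatocyte transcription.

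The fibrinogen genes and both chains of C4b-binding protein are shown with the 250 bases before their start, because the fibrinogen genes lie side by side and encode chains of 1 protein, and the C4b-binding protein chains were both among the higher members. Sequences are from RefSeq, build GRCr8, 5′ to 3′ on the gene's strand, and 21 of the 28 measured members had an entry. Capitals mark matches, on either strand, to GTTAAT (a half-site of HNF1), TTGCNNAA (C/EBP), TTCNNNGAA (STAT), TGTTTAC (FOXA) or AGGTCA (a nuclear receptor half-site), all factors of hepatocyte transcription.
Fga, chr2:170671919-170672168, plus strand: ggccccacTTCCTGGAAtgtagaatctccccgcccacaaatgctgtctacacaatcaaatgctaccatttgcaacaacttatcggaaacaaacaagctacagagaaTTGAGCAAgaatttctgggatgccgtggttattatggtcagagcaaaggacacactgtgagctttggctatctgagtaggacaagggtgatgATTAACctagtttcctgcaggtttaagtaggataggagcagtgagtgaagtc
Fgb, chr2:170700876-170701125, minus strand: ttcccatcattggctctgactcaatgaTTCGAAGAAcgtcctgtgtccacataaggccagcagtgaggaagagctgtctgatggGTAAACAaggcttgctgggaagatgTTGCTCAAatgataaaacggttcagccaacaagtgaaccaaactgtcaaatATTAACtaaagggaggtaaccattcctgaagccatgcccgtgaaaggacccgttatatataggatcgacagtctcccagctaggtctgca
Fgg, chr2:170652833-170653082, plus strand: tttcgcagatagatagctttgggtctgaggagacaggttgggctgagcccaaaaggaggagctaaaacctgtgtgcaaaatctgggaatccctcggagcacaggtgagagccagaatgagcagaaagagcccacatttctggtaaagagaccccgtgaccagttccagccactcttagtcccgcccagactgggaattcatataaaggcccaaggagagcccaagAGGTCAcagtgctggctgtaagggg
C4bpa, chr13:44663472-44663721, minus strand: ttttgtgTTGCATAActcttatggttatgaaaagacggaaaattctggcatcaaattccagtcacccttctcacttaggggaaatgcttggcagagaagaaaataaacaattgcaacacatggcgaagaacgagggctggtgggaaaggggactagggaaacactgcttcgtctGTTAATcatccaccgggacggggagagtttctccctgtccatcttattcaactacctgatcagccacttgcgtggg
C4bpb, chr13:44683782-44684031, minus strand: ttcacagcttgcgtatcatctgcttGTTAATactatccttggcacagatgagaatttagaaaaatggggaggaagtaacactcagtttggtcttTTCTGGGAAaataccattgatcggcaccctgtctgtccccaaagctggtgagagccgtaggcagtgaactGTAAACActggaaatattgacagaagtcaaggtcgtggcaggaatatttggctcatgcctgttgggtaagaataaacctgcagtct

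Fga and Fgb each held a STAT, a C/EBP and an HNF1 half-site match. The Fgb window also held a FOXA match. The Fgg window held none of these and had an AGGTCA 25 to 20 bases before the start. C4bpa and C4bpb both held an HNF1 half-site, 76 to 71 and 225 to 220 bases before the start. Each of 27457 genes with an entry was given 1 window of the same length before its start. Over the 21 measured members with an entry, GTTAAT was present in 7 (33.3%), against 6.49% of all these genes. TTGCNNAA was present in 7 (33.3%, against 9.21%), AGGTCA in 7 (33.3%, against 13.6%), TTCNNNGAA in 5 (23.8%, against 7.50%) and TGTTTAC in 3 (14.3%, against 3.25%). A match is a run of letters and not a shown binding site, and the motifs were chosen with the sequences in view.

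Both arrays carried strong signals of hepatocyte genes. Alb, encoding albumin, read 9119.2 (low-fat) and 9255.6 (high-fat) in the deposited units of fluorescence intensity. Detection floors were set at each array's median over 15866 gene probe sets, 15.7 (low-fat) and 14 (high-fat). Ratios are log2 of high-fat signal divided by low-fat signal, shifted so that their median over the 7864 probe sets measured is 0. The median before this centring was -0.117. Higher and lower refer to the centred ratio, so a gene whose signal dropped by less than that shift has a ratio above 0. The brightest probe set, by mean log2 signal, stands for a gene with more than one.

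Of the 29 genes found, 28 were measured, all with signals above the floor on both arrays. Cd55, encoding an inhibitor anchored in the membranes of host cells, read 6.3 and 3.4 on one probe set and 0.6 and 0.4 on the other, below the floor on both arrays, so no ratio is given. The other 28 had ratios from -0.08 to 0.46, with a median of 0.16. By its brightest probe set, none reached 1.5-fold in either direction. Of the 6012 measured genes, 4.22% were past 1.5-fold on the higher side and 5.44% on the lower side. None reached 2-fold either, against 0.848% higher and 0.865% lower.

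Most ratios were small and lay above 0. Of the 28 members, 25 were higher on the high-fat array and 3 lower, against 50% of all measured genes on each side. Without centring, 17 were higher and 11 lower (60.7% higher, against 33.2% of all measured genes). With quantile normalization 20 were higher, 5 lower and the others at 0 (71.4% higher, against 49.4% of all measured genes). The members are abundant, and 25 of the 28 fell in the brightest 10% of measured probe sets. This set holds 619 genes, of which 62.8% were higher and 37.2% lower, with 1.94% past 1.5-fold on the higher side and 1.45% on the lower side. The 594 of them that are no members had a median of 0.05. Of these other bright genes, 61.6% were higher, and 37.0% without centring, 44.2% with quantile normalization and 48.8% after a loess correction for signal. The members were at 60.7%, 71.4% and 82.1% under the same alternatives.

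**Figure D1:**
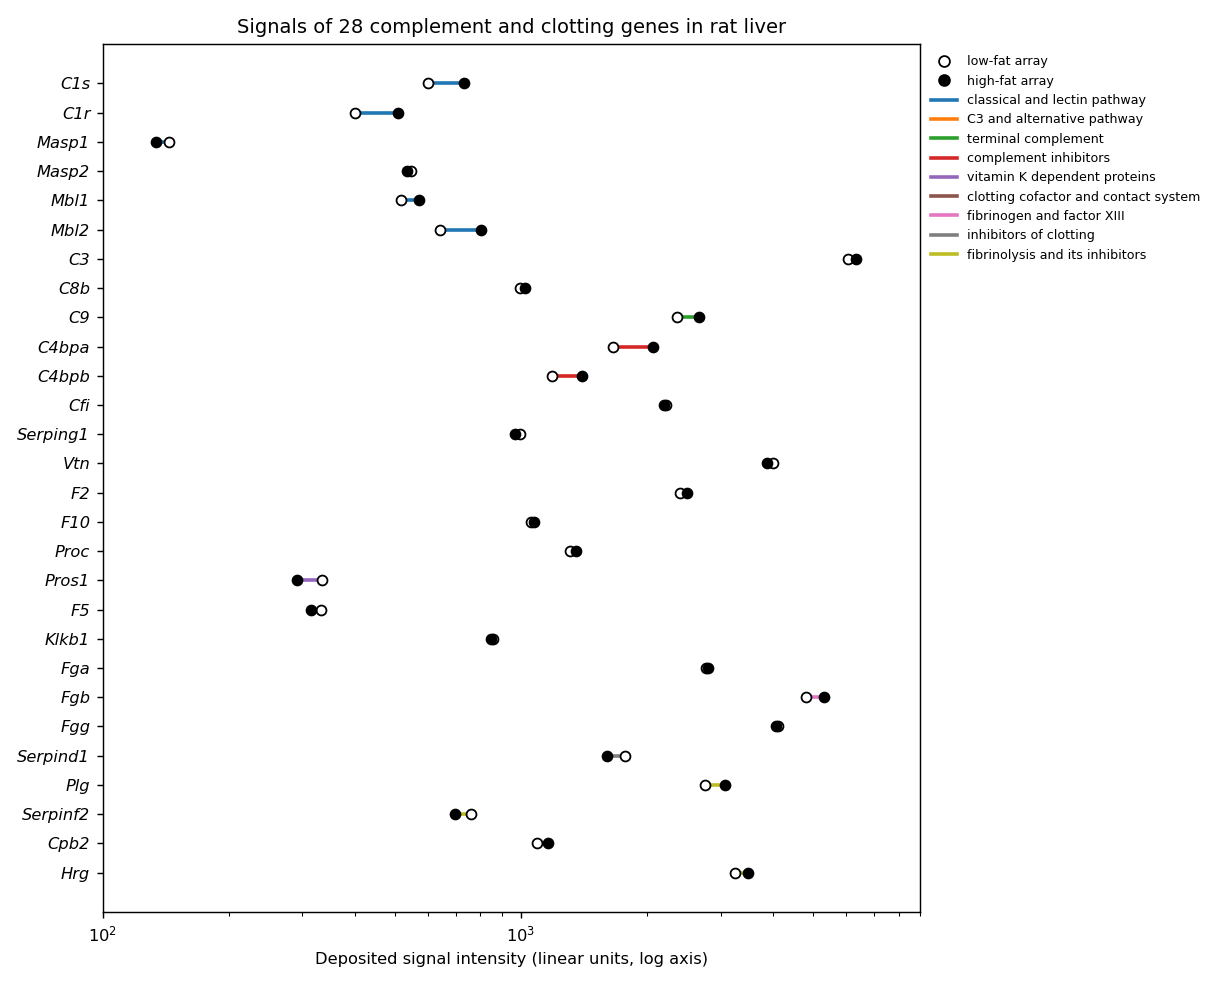
Deposited signal intensity of each of the 28 measured genes (log axis), with the low-fat array as an open circle, the high-fat array as a filled circle and a line coloured by role between them; each point is 1 array and has no error. The gap is widest for C1r, C1s, Mbl2, C4bpa and C4bpb, while most clotting genes have nearly the same signal on both arrays.

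Of the role groups, the classical and lectin pathway genes, which start complement, had the highest median, 0.33 over 6 measured members, with ratios from 0.01 to 0.46. C1r, the protease that activates itself when C1 binds antibody, went from 400.5 to 507.9, a ratio of 0.46 or 1.37-fold. C1s, the protease that C1r activates and that cleaves C4 and C2, went from 598.3 to 730.4, a ratio of 0.40. These genes lie next to each other in the rat genome, on chromosome 4, and their ratios differed by less than the robust SD of 0.171 of the log2 ratio among the brightest 10% of probe sets. That SD describes how probe sets of like signal scatter, not how animals vary.

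The mannose-binding lectins recognise sugars on microbial surfaces, and both were higher. Mbl2 went from 641.7 to 802.3, a ratio of 0.44. Its second probe set went from 203.5 to 288.6, a ratio of 0.62 or 1.54-fold, past the 1.5-fold limit. Mbl1 went from 517.4 to 571.5, a ratio of 0.26. The proteases that ride on these lectins had ratios near 0. Masp1 went from 144.2 to 134.3 on its brightest probe set, a ratio of 0.01 that was -0.10 without centring, and its dimmer probe sets were at 0.12 and 0.28. Masp2, which cleaves C4 and C2, went from 547.1 to 532.6, a ratio of 0.08, and its second probe set from 270.3 to 239.8, a ratio of -0.06. The dimmer Masp1 probe set at 0.28 overlapped the ratio of Mbl1, but it read only 19.5 and 21.8, near the floors of 15.7 and 14. The Masp1 probe set at 0.12 read 24.2 on both arrays, so its ratio is the centring shift alone. No test sets the lectins against the proteases.

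C3, the component on which all routes converge, went from 6067.9 to 6328.8, a ratio of 0.18 that became 0 with quantile normalization. The terminal components C8b and C9 insert into the target membrane. C9, the subunit that forms the ring of the pore, went from 2357.1 to 2662.2, a ratio of 0.29. C8b went from 992.5 to 1020.9, a ratio of 0.16. Both kept a ratio above 0 under every scaling run.

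The inhibitors of complement split into a higher pair and a group near 0. C4b-binding protein is built from the products of C4bpa and C4bpb and helps to inactivate C4b. C4bpa, its alpha chain, went from 1658.7 to 2070.2, a ratio of 0.44 or 1.35-fold. C4bpb, its beta chain, which binds protein S, went from 1183.4 to 1400.8, a ratio of 0.36. The genes lie on chromosome 13 with 1 other protein-coding gene between them.

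The remaining inhibitors had slightly lower deposited signals on the high-fat array, so that their ratios lay above 0 after centring and below 0 without it. Cfi, the protease factor I that cleaves C3b and C4b, went from 2221.6 to 2194.9, a ratio of 0.10 and of -0.02 without centring. Serping1, the C1 inhibitor, which also blocks plasma kallikrein, went from 994.4 to 969.1, a ratio of 0.08 and of -0.04 without centring. Vtn, vitronectin, which keeps the terminal complex out of membranes and stabilises the plasminogen activator inhibitor, went from 4007.3 to 3884.6, a ratio of 0.07 and of -0.04 without centring. No test sets these 3 inhibitors against the C4b-binding protein chains.

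**Figure D2:**
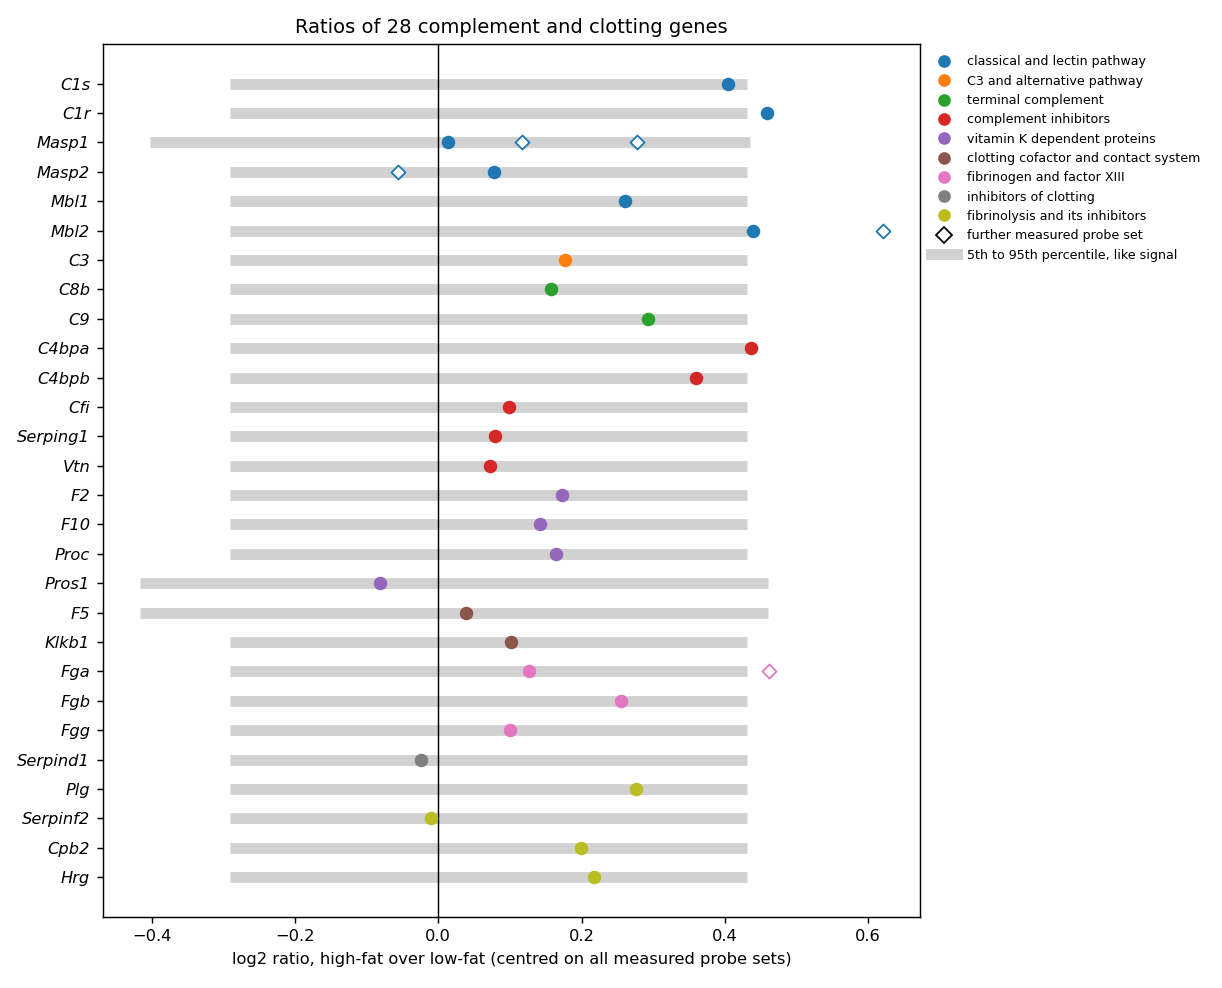
Centred log2 ratio (high-fat signal divided by low-fat signal) for each of the 28 measured genes (filled circles, coloured by role) and for further measured probe sets of the same gene (open diamonds), over grey bars that span the 5th to the 95th percentile of the ratio among probe sets in the same of 10 equal bins of signal. C1r, Mbl2 and C4bpa lie beyond their bars on the right, no gene lies beyond its bar on the left, and most clotting genes lie between 0 and 0.3.

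Few members stood outside the scatter of probe sets with like signal. In the brightest of 10 equal bins of signal, 5% of log2 ratios lay below -0.29 and 5% above 0.43. C1r, Mbl2 and C4bpa were above the 95th percentile of their bin, which is 3 of 28 members, against 4.94% of all measured genes. No member was below the 5th percentile of its bin, against 5.06% of all measured genes. C1s at 0.40 lay just inside the upper limit.

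Factor II, factor X, protein C and protein S carry gamma-carboxyglutamate residues whose synthesis needs vitamin K, and 3 of these 4 measured genes were higher. F2, prothrombin, went from 2394.2 to 2489.3, a ratio of 0.17. F10, whose active form cleaves prothrombin, went from 1054.1 to 1073.0, a ratio of 0.14. Proc, protein C, an anticoagulant that degrades factors Va and VIIIa, went from 1311.5 to 1355.5, a ratio of 0.16. These ratios were nearly equal. Pros1, protein S, the cofactor of activated protein C and the partner of the C4b-binding protein beta chain, went the other way, from 334.1 to 291.3, a ratio of -0.08 that stayed below 0 under all 10 alternatives.

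The cofactor and contact system genes were nearly level between the arrays. F5, the cofactor that speeds prothrombin cleavage, went from 331.6 to 314.3, a ratio of 0.04 and of -0.08 without centring. Klkb1, plasma prekallikrein, which activates factor XII and frees bradykinin, went from 854.8 to 845.5, a ratio of 0.10 and of -0.02 without centring. Serpind1, heparin cofactor II, an inhibitor of thrombin, went from 1769.7 to 1605.6, a ratio of -0.02 and of -0.14 without centring. It was the only measured member of the clotting inhibitors.

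The fibrinogen chains form the fibrin network, and their genes are neighbours on chromosome 2. Fgb, the beta chain, went from 4813.9 to 5301.2, a ratio of 0.26, and to 0.07 with quantile normalization. Fga, the alpha chain, went from 2773.3 to 2792.3, a ratio of 0.13, but its second probe set went from 698.8 to 887.3, a ratio of 0.46. Fgg, the gamma chain, went from 4116.0 to 4067.5, a ratio of 0.10 and of -0.02 without centring. The gap between the probe sets of Fga, 0.33, was wider than that between the ratios used for Fga and Fgb, so these data do not order the chains. Among 696 genes with a second measured probe set on these arrays, the median absolute difference of the ratio was 0.253. Another 2 probe sets of Fgb were below the floor on both arrays, at 11.5 and 0.8 and at 5.7 and 4.6, and give no ratio.

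Of the fibrinolysis genes, 3 of 4 were higher, with a median of 0.21. Plg, plasminogen, the precursor of plasmin, went from 2753.8 to 3075.3, a ratio of 0.28. Hrg, histidine-rich glycoprotein, which binds plasminogen and heparin, went from 3248.1 to 3484.3, a ratio of 0.22. Cpb2, a carboxypeptidase that removes plasminogen binding sites from fibrin, went from 1094.4 to 1158.9, a ratio of 0.20. These 3 had ratios above 0 under every scaling run. Serpinf2, the plasmin inhibitor alpha2-antiplasmin, went from 758.6 to 695.1, a ratio of -0.01 that took either sign with the processing.

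Taken by system, the 14 measured complement genes had a median of 0.22, all above 0, and the 14 measured clotting and fibrinolysis genes had a median of 0.13, with 11 above 0 and 3 below. Without centring, 9 of 14 complement genes and 8 of 14 clotting genes were higher, when 33.2% of all measured genes and 38.3% of those in the brightest bin were. With quantile normalization 10 of 14 complement genes were higher and 2 lower. The difference between the medians was 0.08, and it was 0.04 when the floor was lowered so that Cd55 entered. It has no test. Vtn and Serping1, which act in both systems, were counted with complement. The 15 measured hepatocyte markers, such as Ttr, Ahsg and Serpina1, had a median of 0.14, with 14 higher and 1 lower, or 10 and 5 without centring. With the reported processing the clotting median was thus close to that of other hepatocyte genes, and the complement median above it. The complement genes Masp1, Masp2, Cfi, Serping1 and Vtn lay below the hepatocyte median.

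**Figure D3:**
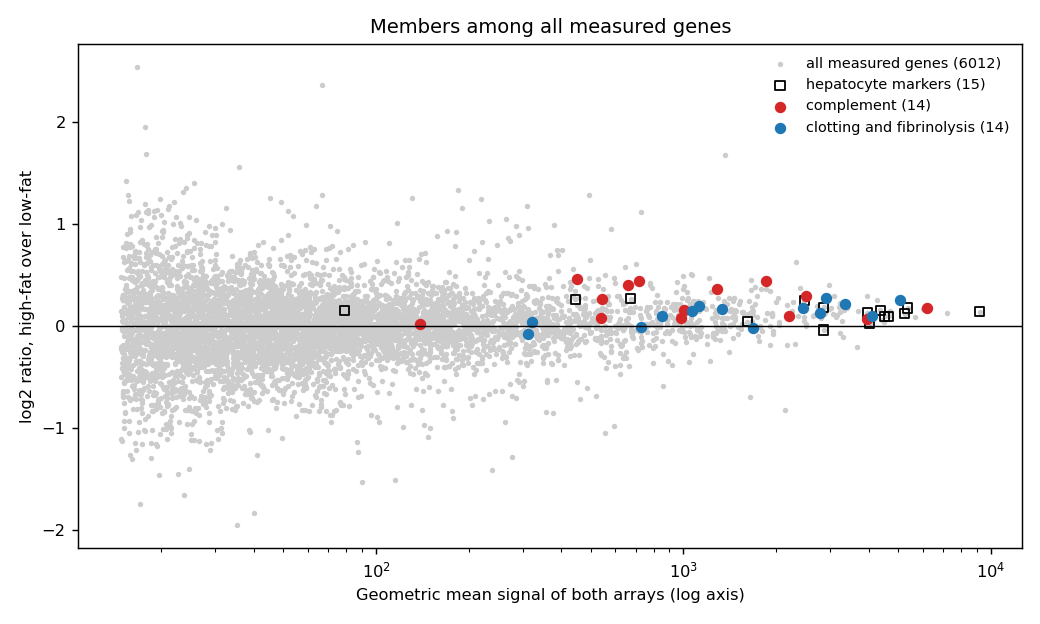
Centred log2 ratio, high-fat signal divided by low-fat signal (y axis) against the geometric mean signal of both arrays (x axis, log scale) for all 6012 measured genes (grey), the 14 complement genes (red), the 14 clotting and fibrinolysis genes (blue) and 15 hepatocyte markers (open squares). The members lie at the bright end, where ratios scatter least, and mostly just above 0 among the hepatocyte markers.

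The ratio was also corrected for its trend with signal by loess, a local regression. After this the medians were 0.15 for complement, 0.06 for clotting and fibrinolysis, 0.01 for hepatocyte markers and -0.003 for other genes of the brightest bin. Of the complement genes 13 of 14 were then higher, of the clotting and fibrinolysis genes 10 of 14, and of the hepatocyte markers 8 of 15. C1r, C1s, Mbl1, Mbl2, C8b, C9, C4bpa and C4bpb had ratios above 0 under all 10 alternatives. So did F2, F10, Proc, Fga, Fgb, Plg and Cpb2 of clotting and fibrinolysis, and Hrg in every setting that gave it a value. Over these settings C1r ranged from 0.34 to 0.49, Mbl2 from 0.32 to 0.53, C4bpa from 0.32 to 0.46 and C1s from 0.29 to 0.43. The other centrings and floors only shift the ratios of all measured members by the same constant. The median over probe sets leaves a gene with a single measured probe set unchanged. A kept sign under these settings is therefore not a separate check of a gene, and the ranges partly reflect the constants.

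**Figure D4:**
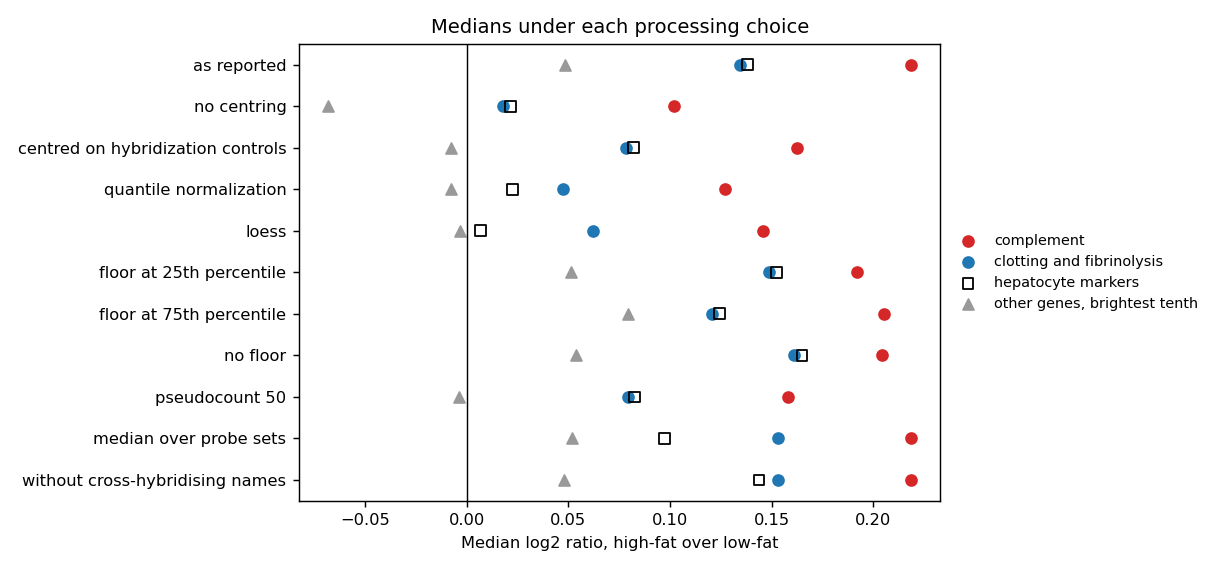
Median centred log2 ratio (x axis) of complement genes (red), clotting and fibrinolysis genes (blue), hepatocyte markers (open squares) and other genes in the brightest of 10 bins of signal (grey triangles) under the reported processing and 10 alternatives (rows). The complement median lies to the right of the other medians in every row, from 0.10 to 0.22, and all the medians shift with the centring and the loess correction.

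Other genes of these pathways, from a list of 41, were found for 28 and measured for 16, with 8 higher and 8 lower and a median of -0.02. Of the 16, 1 was past 1.5-fold on the higher side, and also past 2-fold. Among all measured genes, 4.22% and 0.848% were past these limits on the higher side. The gene past both limits was A2m, the broad protease inhibitor alpha2-macroglobulin, which went from 36.4 to 73.3, a ratio of 1.13. With a pseudocount of 50 the highest ratio on this list was 0.58, and none was past 1.5-fold. Clu, clusterin, which binds the terminal complex, went from 1480.1 to 1866.0, a ratio of 0.45. Another probe set of Clu, at 17.2 and 12.7, did not count as measured. Serpina10, the protein Z-dependent inhibitor of activated factor X, went from 771.2 to 878.2, a ratio of 0.30. Fcna, the ficolin of the lectin pathway, went from 80.9 to 94.4, a ratio of 0.34.

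The subunits of C1q, the part of C1 that binds antibody, are made mainly by macrophages rather than hepatocytes, and they were lower. C1qa went from 188.7 to 156.2, a ratio of -0.16, C1qb from 156.0 to 139.2, a ratio of -0.05, and C1qc from 141.8 to 105.5, a ratio of -0.31. C1r and C1s, which join C1q in the C1 complex, had opposite signs to these. Of the Kupffer cell marker list, which includes the C1q genes, 8 of 11 were measured, with 4 higher and 4 lower. The lower ones were C1qa, C1qb, C1qc and Clec4f, and the higher ones Cd68, Csf1r, Cd14 and Lyz2. Signals of these 8 summed, without centring, to 1423.7 (low-fat) and 1240.3 (high-fat). Clec4f, a lectin of Kupffer cells, was at -0.21 and Cd14 at 0.50. The part of Kupffer cell content in the C1q values was not tested. Of the stellate cell list, 4 of 8 were measured and all 4 were lower, with a median of -0.43. Their signals summed, without centring, to 376.1 (low-fat) and 267.8 (high-fat). Lrat, from 21.1 to 16, and Col1a2, from 29.9 to 13.2, had low signals, and Col1a2 was below the floor on the high-fat array. The second measured probe set of Col1a2 was at 0.07. Vim, the intermediate filament vimentin, was at -0.59. The part of stellate cell content in the members' values was not tested. Cfp, properdin, and C5ar1, the C5a receptor, were at -0.34 and -0.29, with low signals on both arrays, and the second measured probe set of Cfp was at 0.08.

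Enzymes that serve the vitamin K dependent proteins had ratios just below 0. Vkorc1, which recycles vitamin K, went from 1176.2 to 1014.8, a ratio of -0.10, and Ggcx, the gamma-glutamyl carboxylase, from 110.2 to 96.6, a ratio of -0.07. Among regulators of these genes in hepatocytes, Stat3, which relays interleukin-6 signals, went from 130.9 to 153.3, a ratio of 0.34. Il6r, the interleukin-6 receptor, went from 201.0 to 140.6, a ratio of -0.40. Cebpb and Cebpa were at -0.18 and -0.12, and Hnf4a at 0.15. The second measured probe set of Hnf4a was at -0.02, and that of Stat3 at 0.43. The regulators went both ways, with 2 of 6 higher.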

How the data were processed

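The deposited table gives a linear fluorescence intensity for each probe set on each array. How the authors went from scan to intensity, including any scaling, is not given in the sources used here, and the scale was read from the values. Each array was assigned to its diet by the sample title. The table held 15923 probe sets, 57 of them controls. The platform annotation gave a single symbol for 12783 of the others, several for 312 and none for 2771. The 29 members found were matched by Entrez identifier to the GRCr8 gene table, and no symbol changed. Signals were put on the log2 scale without a pseudocount after 4 probe sets with a 0 were removed. Probe sets counted as measured had a mean log2 signal at or above the mean log2 floor. They were divided into 10 equal bins of signal. The 10 alternatives were other centrings, quantile normalization, loess, other floors, a pseudocount of 50, the median over probe sets, and removal of probe sets whose names mark possible cross-hybridisation. Every member was named. Of the other pathway genes, at most 12 with the largest absolute ratio could be named. C1qb, Clec4f, Cd14, Cd68, Csf1r, Lyz2, Vim, Lrat and Col1a2 fall outside these rules and were named after their values were seen. The members, role groups and lists were chosen with earlier results of these data known. Steps were tested on simulated data. Python 3.11.15, numpy 2.4.6, pandas 2.3.3 and statsmodels 0.14.6 were used.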

Additional observations from a re-analysis of the deposited data

How the results depend on the processing

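The median ratio of the members was above 0 under all 10 alternatives, from 0.04 without centring to 0.18 with no floor, and 17 of 28 members had the same sign in every setting that gave them a value, 16 higher and 1 lower. Hrg, 1 of the 16, and Serpind1 have no value when suffixed probe sets are left out. The other centrings and floors shift all measured members by the same constant, so these settings are not independent of each other. Without centring 11 members were lower, and 5 were lower with centring on the hybridization controls, quantile normalization, loess or a pseudocount of 50. Without centring the medians of the complement inhibitors and of the cofactor and contact system were -0.017 and -0.047. With quantile normalization C3, the only measured gene of its group, was at 0. With no floor the single clotting inhibitor, Serpind1, was at 0.0031, but it was at -0.14 without centring and with quantile normalization. With the floor at the 25th percentile, or none, 1 member was past 1.5-fold, which was Cd55, with signals below both medians. Fga was at 0.46 when suffixed probe sets were left out, because its brighter probe set is one of them. No paired analysis was possible because each diet has 1 array. No array could be left out for the same reason, and the number of arrays limits the precision of every value.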
